A study of Mus musculus with 1 sample.

Results

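The genes described here were *Cfap61*, *C1qtnf4*, *Ramp1*, *Fxyd2* and *Olfm3*, 5 of the 32285 genes measured in single cells of the postnatal mouse adrenal medulla. They were chosen by their measured fold over other medullary cells: each led one of the main clusters of adrenaline chromaffin cells in an earlier look at these same data, so their height in those cells is a description of the choice and no finding. The mice were wild type and 15 days old. The cortex was cut away by hand from 10 adrenals of 5 mice, males and females together, and 10000 viable cells of the pool were loaded for droplet sequencing of 3′ transcript ends. All cells thus belonged to 1 library, there was no second condition, and no test between animals was possible. Every interval below is an exact 95% interval that covers counting error only, and cells were not treated as replicates.

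Chromaffin cells are the catecholamine-secreting cells of the adrenal medulla and derive from the neural crest. All of them make noradrenaline, and those that also hold phenylethanolamine N-methyltransferase, the product of *Pnmt*, convert it into adrenaline. Glucocorticoid from the surrounding cortex is known to sustain *Pnmt*, and the glucocorticoid receptor, EGR1 and AP-2 are known regulators of the *Pnmt* promoter. The chosen genes have other roles. *Ramp1* encodes a single-pass membrane partner that turns the calcitonin receptor-like receptor (*Calcrl*) into a receptor for calcitonin gene-related peptide. *Fxyd2* encodes the gamma subunit of the sodium pump, best known from kidney tubules. *C1qtnf4* and *Olfm3* encode secreted proteins, of the C1q and tumour necrosis factor related family and of the olfactomedin family. *Cfap61* encodes a protein of the radial spokes of motile cilia and sperm flagella.

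All 5 genes are protein-coding and lie on the plus strand of the GRCm38 assembly. *Cfap61* (ENSMUSG00000037143) spans chr2:145934784-146215039, or 280 kb. On the same chromosome *C1qtnf4* (ENSMUSG00000040794) spans chr2:90885860-90890525, or 4.67 kb. *Ramp1* (ENSMUSG00000034353) spans chr1:91179822-91225196, *Olfm3* (ENSMUSG00000027965) chr3:114904078-115125722 and *Fxyd2* (ENSMUSG00000059412) chr9:45399669-45410278. *Cfap61* was the only one of the 5 with an overlapping gene, *Crnkl1* on the opposite strand, which stood at 39.0 CPM (UMIs of the gene per 1000000 UMIs) in the adrenaline cells. The next gene on the strand of *Cfap61* is *Insm1*, which encodes a transcription factor of neuroendocrine cells and begins 6881 bp beyond its annotated end. *Insm1* stood at 62.6 CPM (95% interval 57.0 to 68.6) in adrenaline cells, against 51.0 CPM (39.5 to 64.8) in noradrenaline cells, and these intervals overlapped.

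The stretches just before the transcription starts of *Cfap61*, *Ramp1* and *Olfm3* are shown because these 3 genes had an entry among the RefSeq promoters for GRCm38.p6. Each run holds the 150 bases before the first annotated start on the plus strand, 5′ to 3′, and capitals mark CG dinucleotides.
*Cfap61*, chr2:145934634-145934783: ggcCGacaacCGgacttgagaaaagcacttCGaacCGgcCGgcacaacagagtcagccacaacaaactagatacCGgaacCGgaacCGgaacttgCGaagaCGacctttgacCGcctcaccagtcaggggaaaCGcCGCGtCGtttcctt
*Ramp1*, chr1:91179672-91179821: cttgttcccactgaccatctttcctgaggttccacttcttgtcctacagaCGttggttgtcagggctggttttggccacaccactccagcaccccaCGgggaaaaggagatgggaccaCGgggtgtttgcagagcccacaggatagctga
*Olfm3*, chr3:114903928-114904077: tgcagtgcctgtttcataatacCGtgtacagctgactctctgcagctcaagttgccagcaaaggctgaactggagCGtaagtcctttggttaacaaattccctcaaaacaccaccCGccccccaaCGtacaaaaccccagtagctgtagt
Over the 250 bases before the start, *Cfap61* had 24 CG dinucleotides, as many as or more than which were found in 11.98% of 32851 mouse promoters. *Ramp1* and the first start of *Olfm3* each had 4, a second annotated start of *Olfm3* had 0, and the median over all promoters was 6. Reads from transcript ends do not show which start was used. The core letters of the glucocorticoid receptor element (AGAACA), an EGR1 site (GCGGGGGCG), an AP-2 site (GCCNNNGGC) and the E-box CACGTG were searched on both strands. None of these letters occurred in the windows of the 3 genes, from 250 bases before to 50 bases after each start. Of all promoters, 19.0% held AGAACA, 2.91% GCGGGGGCG, 16.6% GCCNNNGGC and 7.15% CACGTG. The full palindromic glucocorticoid receptor element was found in 3 of all promoters and in none of these windows.

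The library held 11214 barcodes with 500 to 33809 UMIs each (median 3250), of which 10139 passed the filter on genes and mitochondrial UMIs. Clusters were rebuilt and named "-like" from marker genes, which gave 1670 adrenaline, 388 noradrenaline, 414 transitioning and 135 cycling chromaffin-like cells beside 3715 cortex-, 2150 endothelial-, 626 macrophage- and 89 fibroblast-like cells. A further medullary cluster of 179 cells, led by *Scn7a* and *Col28a1*, had a median of 1149 UMIs and is left unnamed. Median depth was 3161.5 UMIs in adrenaline, 2646.5 in noradrenaline and 2005.5 in endothelial-like cells. Levels are given as CPM over the summed UMIs of a class. Each UMI counts 1 transcript end, so a CPM value was not divided by gene length. The doublet caller marked 0 of the adrenaline, 1 of the noradrenaline and 17 of the cycling cells. The chromaffin markers and *Pnmt* named the adrenaline clusters, so their levels there describe the name and do not check it. All 7 chromaffin markers were over 10 CPM in each adrenaline cluster, but all 7 also reached 10 CPM in fibroblast-like cells. There chromaffin markers summed to 3155 CPM, endothelial markers to 4111 CPM and cortex markers to 1996 CPM, against 2772 CPM of fibroblast markers. The part of this mix in the values of the fibroblast-like class was not tested. *Pnmt* stood at 11667 CPM in adrenaline cells against 174 CPM in noradrenaline-like cells. In the 3 adrenaline clusters the cortex markers summed to between 103 and 168 CPM, against 23119 CPM in cortex-like cells. The erythroid markers, 5 genes led by haemoglobins, summed to 6958, 190 and 3229 CPM in the adrenaline clusters of 818, 733 and 119 cells, 1883 CPM in noradrenaline-like and 2950 CPM in endothelial-like cells. In the cycling cells those cortex markers summed to 1930 CPM, and their part in the values of that class was not tested.

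All 5 genes had their highest level in adrenaline chromaffin-like cells and a lower one in noradrenaline-like cells, with intervals that did not overlap. *Cfap61*, the motile cilium gene, was the most strongly represented, with 8202 UMIs in the adrenaline cells. It stood at 1114 CPM (1090 to 1139) in adrenaline, 601 in cycling, 424 in transitioning and 159 CPM (138 to 182) in noradrenaline-like cells. None of these 4 neighbouring levels overlapped. The unnamed *Scn7a* cluster held 56.3 CPM of *Cfap61* from 13 UMIs, and the classes from outside the medulla between 2.85 and 31.6 CPM. Chromaffin markers summed to 3128 CPM in the *Scn7a* cluster, and the part of such RNA in the values of that cluster was not tested.

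**Figure D1:**
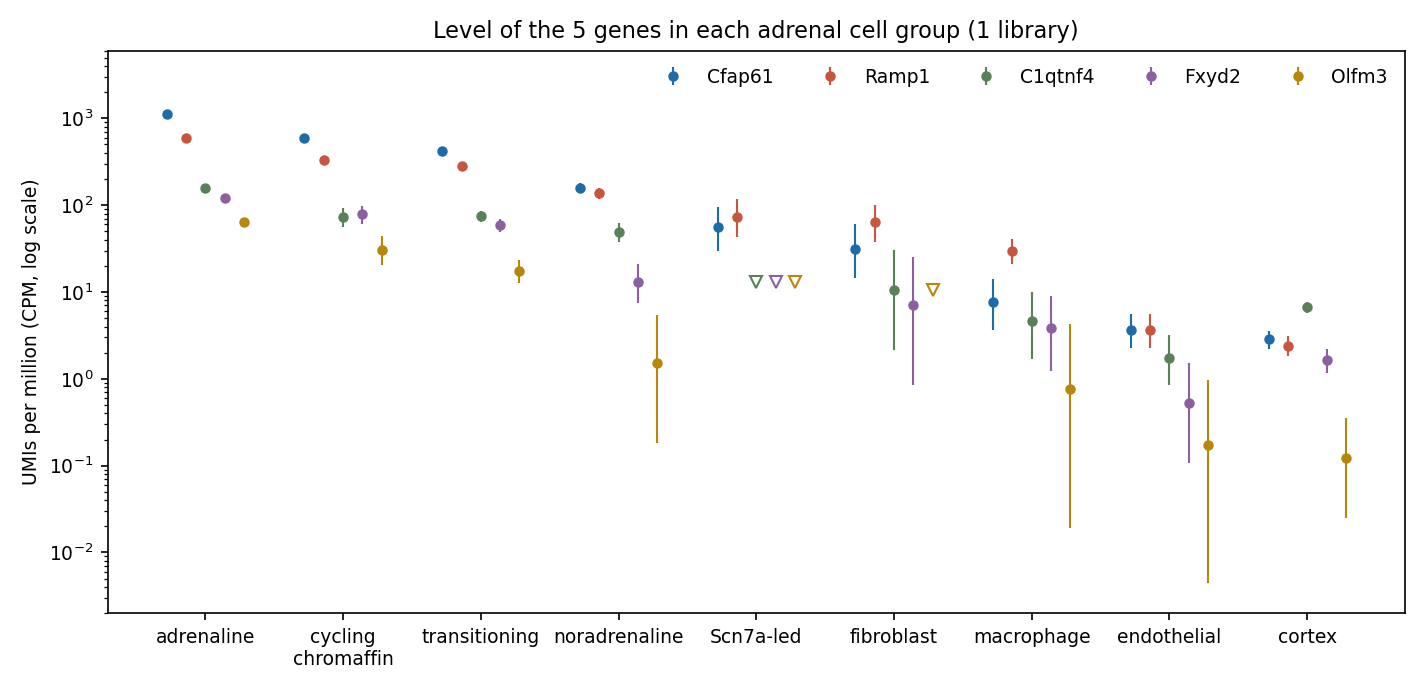
Level of each gene in CPM (log axis) in each cell class, with exact 95% Poisson intervals and open triangles at the limit of 3 counts where no UMI was found. Every gene is highest in the adrenaline cells, from 1114 CPM for *Cfap61* to 63.2 CPM for *Olfm3*. In classes from outside the medulla the values with a UMI lie below the noradrenaline-like ones, in part with overlapping intervals. *C1qtnf4*, *Fxyd2* and *Olfm3* had no UMI in the medullary *Scn7a* cluster.

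*Ramp1*, the receptor partner, was the next most abundant, with 589 CPM (572 to 607) in adrenaline cells, against 136 CPM (117 to 158) in the noradrenaline-like class. Its levels in cycling (329 CPM) and transitioning cells (282 CPM) lay between these and had overlapping intervals. Outside the chromaffin cells *Ramp1* stood at 63.2 CPM in fibroblast-like and 29.9 CPM in macrophage-like cells, the highest of the 5 genes in both. The former came from 18 UMIs in a class that also carried chromaffin, endothelial and cortex marker RNA. The fibroblast-like value overlapped that of the *Scn7a* cluster (73.6 CPM from 17 UMIs). Macrophage-like cells lay above endothelial-like (3.68 CPM) and cortex-like cells (2.40 CPM).

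*Fxyd2*, the sodium pump subunit, reached 122 CPM (114 to 130) in adrenaline cells, against 12.9 CPM (7.54 to 20.7) in the noradrenaline-like class. The noradrenaline-like interval overlapped that of the next class, the fibroblast-like cells with 2 UMIs (7.03 CPM). Cycling (78.1 CPM) and transitioning cells (58.8 CPM) overlapped each other and lay below adrenaline cells. No *Fxyd2* UMI was found in the *Scn7a* cluster, which at its depth allows a level of up to 13.0 CPM.

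The secreted C1q family member *C1qtnf4* reached 158 CPM (149 to 167) in adrenaline cells, whereas the noradrenaline-like class held 48.7 CPM (37.5 to 62.2). The transitioning (74.6 CPM), cycling (72.8 CPM) and noradrenaline-like levels each overlapped the next in order. The transitioning interval (64.3 to 86.0) did not overlap the noradrenaline-like one. No UMI was found in the *Scn7a* cluster, with the same limit of 13.0 CPM, and the classes outside the medulla held 1.75 to 10.5 CPM.

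The olfactomedin gene *Olfm3* was the least abundant in adrenaline cells, at 63.2 CPM (57.6 to 69.2) from 465 UMIs. The noradrenaline-like cells held 2 UMIs, or 1.52 CPM (0.184 to 5.50). Cycling cells had 30.6 CPM and transitioning cells 17.4 CPM, and these overlapped. Outside the chromaffin classes 5 UMIs were found in all, 3 in cortex-, 1 in endothelial- and 1 in macrophage-like cells, all with intervals that overlapped the noradrenaline-like one. The direct ratio of noradrenaline-like to cortex-like cells was 12.47 (1.04 to 109). No *Olfm3* UMI was found in fibroblast-like cells, which allows up to 10.5 CPM, or in the *Scn7a* cluster (up to 13.0 CPM).

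The ratio of adrenaline to noradrenaline-like cells was 7.003 (6.10 to 8.07) for *Cfap61*, 4.32 (3.72 to 5.05) for *Ramp1* and 3.24 (2.52 to 4.23) for *C1qtnf4*. It was 9.39 (5.83 to 16.2) for *Fxyd2* and 41.5 (11.4 to 344) for *Olfm3*, the latter resting on the 2 noradrenaline UMIs. With each cell reduced to 1000 UMIs drawn at random the 5 ratios, in the same order, were 7.03, 4.23, 3.90, 7.92 and 23.1. Cells were also named one by one from the markers they held, without clusters, as adrenaline where *Pnmt* made up 0.2% or more of the UMIs. Of the 643 cells then named noradrenaline, 358 were in the noradrenaline-like class, so this contrast is between partly different cells. The ratios were 3.52 for *Cfap61*, 3.33 for *Ramp1*, 2.39 for *C1qtnf4*, 3.57 for *Fxyd2* and 10.4 for *Olfm3*. All 5 genes passed a 2-fold difference of (CPM + 10), which 2.45% of the 8738 genes at 10 CPM or more passed in this direction and 3.28% in the other. This contrast is the one that chose the genes, so nothing is read from that count.

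The share of cells with at least 1 UMI gave the same order of the genes as the levels. *Cfap61* was found in 91.4% of adrenaline and 30.2% of noradrenaline-like cells, *Ramp1* in 80.0% and 30.2%, *C1qtnf4* in 45.0% and 14.2%, *Fxyd2* in 36.2% and 4.12%, and *Olfm3* in 20.8% and 0.515%. At 1000 UMIs per cell, 11 adrenaline, 23 noradrenaline and 282 endothelial-like cells were left out as too shallow. The *Cfap61* shares of the rest were 64.9% and 12.9%, against 0.589% in endothelial-like cells. The *Ramp1* shares were then 45.5% and 14.0%, against 0.375% in endothelial-like cells. The noradrenaline-like shares of both genes thus lay above those of endothelial-like cells. *Pnmt*, for whose lack the noradrenaline-like cells are named, also stood there at 2.31 times (1.96 to 2.72) its endothelial-like CPM. Whether these shares came from the cells themselves was not tested. For *C1qtnf4* they were 16.6% and 4.66% against 0.321%, and for *Fxyd2* 11.7% and 1.64% against 0.0535%. For *Olfm3* they were 5.91% and 0.274%, the latter from 1 cell, against 0 of 1868 endothelial-like cells. Noradrenaline-like *Olfm3* was thus not separable from the endothelial-like level at this depth.

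*Cfap61* and *Ramp1* were also present in noradrenaline-like cells in which no *Pnmt* UMI was found. In these 329 cells *Cfap61* stood at 146 CPM (124 to 170) and was found in 29.8% of cells. *Ramp1* stood at 132 CPM (111 to 155), *C1qtnf4* at 41.8 CPM (30.7 to 55.6), *Fxyd2* at 13.3 CPM and *Olfm3* at 0.890 CPM from 1 UMI. In the 59 noradrenaline-like cells with a *Pnmt* UMI the levels were 237 CPM (173 to 317) for *Cfap61* and 163 CPM (111 to 232) for *Ramp1*. The *Cfap61* interval in the cells with *Pnmt* lay just above that in the cells without it, from 45 UMIs in 19 cells. The shares of cells with *Cfap61* overlapped, at 32.2% (20.6 to 45.6) with and 29.8% (24.9 to 35.0) without *Pnmt*. *C1qtnf4* stood at 89.6 CPM (52.2 to 143) in the cells with *Pnmt*. For *C1qtnf4* and for *Ramp1* the 2 intervals overlapped.

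In the classes from outside the medulla the genes were also counted per 100 UMIs of *Pnmt* and of *Chga*, the chromogranin A gene of all chromaffin cells. *Cfap61* had 9.55 UMIs per 100 *Pnmt* UMIs in adrenaline cells, 7.46 (5.77 to 9.52) in cortex-, 4.87 (2.99 to 7.54) in endothelial- and 5.43 (2.56 to 10.2) in macrophage-like cells. Per 100 *Chga* UMIs it had 4.73 in adrenaline cells and 5.69 (4.40 to 7.24), 6.60 (4.03 to 10.3) and 10.8 (4.99 to 20.7) in these classes. *C1qtnf4* had 1.35 UMIs per 100 *Pnmt* UMIs in adrenaline cells and 17.4 (14.6 to 20.5) in cortex-like cells, and 0.670 and 13.2 (11.2 to 15.6) per 100 *Chga* UMIs. *Fxyd2* had 1.04 and 4.26 (3.03 to 5.85) per 100 *Pnmt* UMIs in the same classes, and *Ramp1* 5.05 in adrenaline and 21.2 (14.6 to 30.1) in macrophage-like cells. These 3 low levels outside the medulla were thus higher, relative to *Pnmt*, than in adrenaline cells. In noradrenaline-like cells, which are named by their lack of *Pnmt*, only the ratio to *Chga* is given, at 1.56 (1.35 to 1.78) for *Cfap61* and 1.33 (1.14 to 1.54) for *Ramp1*, against 4.73 and 2.50 in adrenaline cells. The part of free RNA in any of these levels was not tested.

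**Figure D2:**
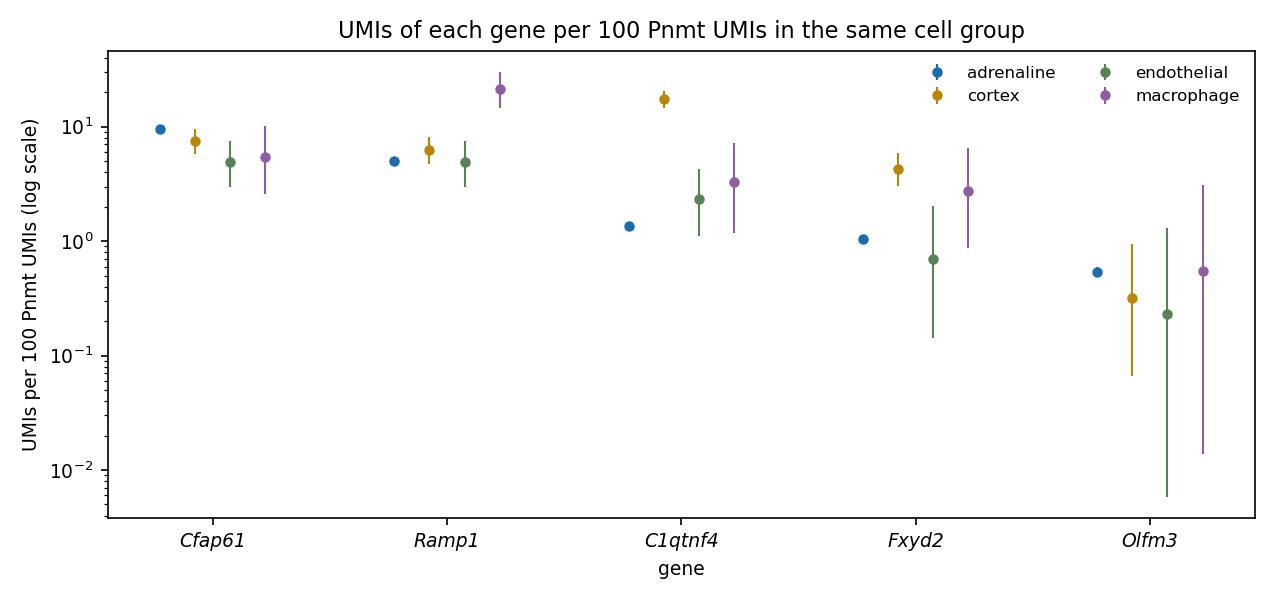
UMIs of each gene per 100 *Pnmt* UMIs in adrenaline, cortex-, endothelial- and macrophage-like cells, on a log axis, with exact 95% intervals. In adrenaline cells the values run from 0.542 for *Olfm3* to 9.55 for *Cfap61*, and *C1qtnf4* stands at 17.4 in cortex-like cells.

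The adrenaline cells fell into clusters of 818, 733 and 119 cells. The first cluster had a median of 2297.5 UMIs and the next 5611, so the clusters differed in depth as well as in genes. The cluster of 119 cells was led by immediate early and heat shock genes, among them *Atf3*, *Egr3*, *Dnajb1*, *Fosb* and *Jun*. The 818-cell cluster was led, by fold over other medullary cells, by *Pnmt* (2.17), *Cfap61* (2.06), *C1qtnf4* (1.86), the metallothionein gene *Mt1* (1.84) and *Fxyd2* (1.68). *Ramp1* came eighth there (1.59), just ahead of *Chga* (1.58). In the 733-cell cluster *Olfm3* came first (2.40), ahead of *Sema5a* (2.28) and *Pcdh10* (2.21), and the other 4 genes ranked between 94 and 399. These ranks are the values that chose the genes.

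*Cfap61* stood at 1441, 994 and 992 CPM in the 818-, 733- and 119-cell clusters, and *C1qtnf4* at 202, 137 and 199 CPM. *Ramp1* stood at 656, 566 and 550 CPM and *Fxyd2* at 144, 112 and 125 CPM. *Olfm3* ran the other way, at 45.9, 72.4 and 36.0 CPM. At 1000 UMIs per cell the ratio of the 818- to the 733-cell cluster was 1.43 (1.30 to 1.57) for *Cfap61*, 1.47 (1.15 to 1.90) for *C1qtnf4* and 1.60 (1.19 to 2.17) for *Fxyd2*. For *Ramp1* it was 1.10 (0.968 to 1.25), an interval that includes equal levels, and for *Olfm3* 0.557 (0.362 to 0.847). The clusters were made from these same genes, so the ratios describe them and test nothing.

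The share of cells with a UMI turned with depth. As sequenced, all 5 genes were found in more cells of the deeper 733-cell cluster, such as *Fxyd2* in 46.8% against 27.3%. At 1000 UMIs per cell *Cfap61* was found in 70.9% of the 818-cell and 60.03% of the 733-cell cluster, *Ramp1* in 46.8% and 42.8%, and *C1qtnf4* in 19.0% and 13.9%. Only *Olfm3* kept the larger share in the 733-cell cluster, with 8.19% against 4.09%. At that depth the intervals of the 818- and 733-cell clusters overlapped for *Ramp1* (43.4 to 50.4 and 39.2 to 46.5) and *C1qtnf4* (16.3 to 21.8 and 11.5 to 16.6). Those of *Cfap61*, *Fxyd2* and *Olfm3* did not.

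**Figure D3:**
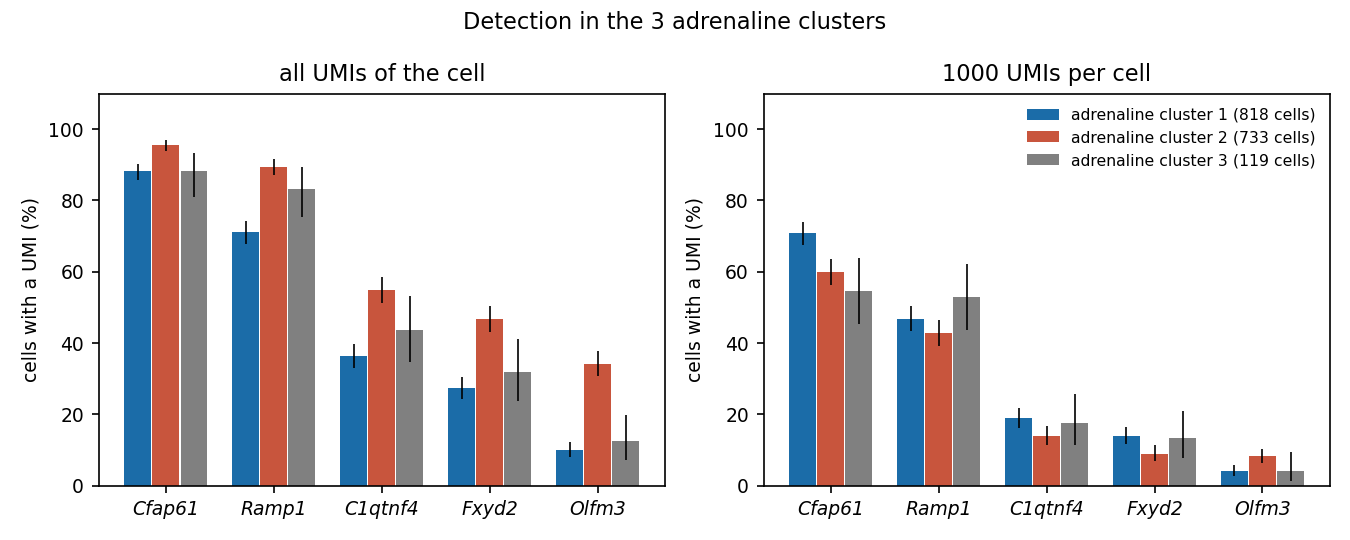
Percent of cells with at least 1 UMI of each gene in the adrenaline clusters, as sequenced and with each cell thinned to 1000 UMIs, with exact 95% binomial intervals. As sequenced the deeper 733-cell cluster is higher for all 5 genes, and after thinning only *Olfm3* is clearly higher there, at 8.19% against 4.09%.

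Within the adrenaline cells the levels of *Cfap61* and *Pnmt* were lower in deeper cells. At 1000 UMIs per cell *Cfap61* stood at 1455 CPM (1354 to 1562) in cells with up to 2419 UMIs in full, 1159 CPM in those with 2420 to 4055 and 1099 CPM (1016 to 1187) in deeper cells. *Pnmt* ran alike, at 14818, 12603 and 10961 CPM. *Olfm3* stood at 56.9, 64.0 and 68.4 CPM, with overlapping intervals. The erythroid markers also differed between the 818- and 733-cell clusters, at 6958 against 190 CPM. The part of depth and of erythroid RNA in the difference between the clusters was not tested.

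To set the genes against *Pnmt* itself, adrenaline and noradrenaline-like cells were thinned to 1000 UMIs and placed in bins by the *Pnmt* UMIs among these. The bins held 421 cells with 0, 157 with 1 to 3, 260 with 4 to 7, 322 with 8 to 11, 323 with 12 to 15 and 541 with 16 or more. *Cfap61* stood at 292, 879, 946, 1177, 1220 and 1530 CPM from the first to the last bin, and *Ramp1* at 214, 274, 550, 615, 684 and 736 CPM. Both values were higher in each bin than in the bin before it, but not every step was clear of counting error. The step of *Cfap61* from 1 to 3 to 4 to 7 was 1.08 (0.870 to 1.34). That of *Ramp1* from 0 to 1 to 3 was 1.28 (0.869 to 1.86). In adrenaline cells alone the order did not hold. There *Cfap61* went from 985 to 946 CPM over the first of these steps, and *Ramp1* from 459 to 313 CPM over the second. *C1qtnf4* stood at 71.3, 89.2, 135, 196, 136 and 244 CPM, with a lower value in the bin of 12 to 15. *Fxyd2* stood at 40.4, 82.8, 108, 143, 152 and 128 CPM, and *Olfm3* at 4.75, 38.2, 76.9, 62.1, 83.6 and 57.3 CPM. Over both kinds of cell these 2 genes were lowest where *Pnmt* was 0. *Fxyd2* then had a higher value in each bin up to 12 to 15 and a lower one in the last, whereas *Olfm3* went up and down. Over the bins with *Pnmt* the intervals of each gene overlapped, so neither a rise nor equal levels can be read there. In adrenaline cells alone *Fxyd2* stood at 129 CPM without *Pnmt* and at 128 CPM in the highest bin. *Olfm3* stood there at 23.5 CPM, from 2 UMIs, and at 57.3 CPM.

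**Figure D4:**
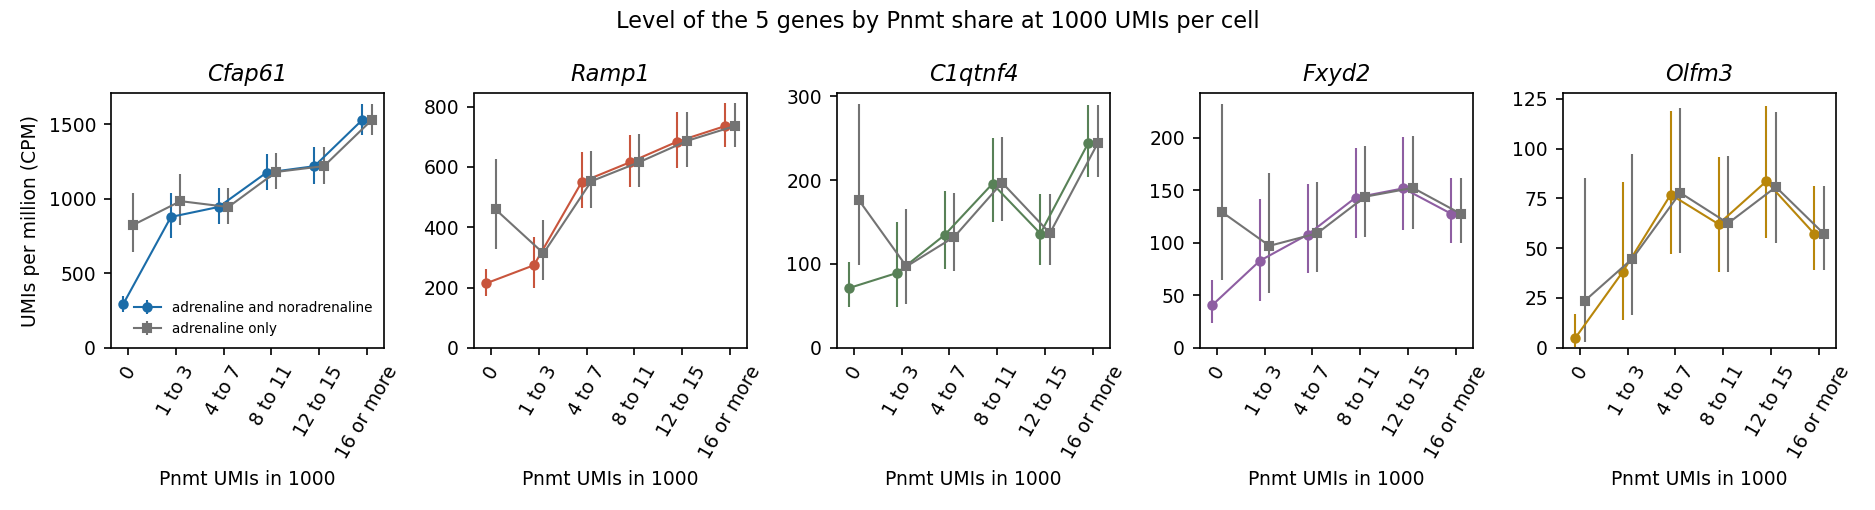
Level of each gene in CPM against the number of *Pnmt* UMIs in 1000 UMIs per cell, with exact 95% Poisson intervals. Coloured circles hold adrenaline and noradrenaline-like cells together and grey squares the adrenaline cells alone, in which *Cfap61* begins at 824 CPM in place of 292 CPM.

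Between the bins with 16 or more and 1 to 3 *Pnmt* UMIs the ratio was 1.74 (1.45 to 2.10) for *Cfap61*, 2.69 (1.96 to 3.77) for *Ramp1* and 2.74 (1.57 to 5.14) for *C1qtnf4*. For *Fxyd2* it was 1.54 (0.844 to 3.04) and for *Olfm3* 1.499 (0.616 to 4.40), intervals that include equal levels as well as differences of more than 3-fold. Against the bin of 4 to 7 the ratio was 1.62 (1.40 to 1.87) for *Cfap61*, 1.34 (1.10 to 1.63) for *Ramp1* and 1.81 (1.24 to 2.71) for *C1qtnf4*, and 1.18 (0.753 to 1.91) for *Fxyd2* and 0.745 (0.411 to 1.38) for *Olfm3*. By the rule of a 2-fold difference of (CPM + 10), 2 of the 5 genes, *Ramp1* and *C1qtnf4*, were higher in the upper bin, beside 5.94% of 8835 genes, and 0 were lower, beside 6.55%. The call for *C1qtnf4* rested on 14 UMIs in the lower bin and was lost with deeper thinning, where its ratio was 1.21 at 2000 UMIs per cell, and without thinning, where it was 1.51. Among 5193 genes ranked by that fold, *Pnmt*, which set the bins, came first, *Ramp1* 65th, *C1qtnf4* 73rd, *Cfap61* 341st, *Fxyd2* 566th and *Olfm3* 728th. The 5 genes were chosen by their fold in adrenaline clusters, and *Pnmt* itself led the largest of these. Some rise with *Pnmt* may thus be built into the choice, so nothing is read from this count or these ranks.

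The bin without *Pnmt* held 336 noradrenaline-like and 85 adrenaline cells. These 85 cells had their name from their cluster, and the 5 genes were not kept out of the clustering. The values for adrenaline cells alone, here and in the bins above, may thus be partly built in, so they describe and test nothing. In the 85 adrenaline cells *Cfap61* stood at 824 CPM (642 to 1040), *Ramp1* at 459 CPM (326 to 627), *C1qtnf4* at 176 CPM (98.8 to 291), *Fxyd2* at 129 CPM (64.6 to 232) and *Olfm3* at 23.5 CPM. Within adrenaline cells alone the step in *Cfap61* from 0 to 1 to 3 *Pnmt* UMIs was 1.20 (0.889 to 1.62), against 3.01 (2.34 to 3.87) over both kinds of cell. For *Ramp1* that step was 0.683 (0.431 to 1.08) and for *C1qtnf4* 0.550 (0.241 to 1.24), so the bin of 1 to 3 held the lowest values of these genes. The ratio of the highest bin to that of 1 to 3 within adrenaline cells was 1.55 (1.29 to 1.88) for *Cfap61*, 2.35 (1.71 to 3.31) for *Ramp1* and 2.52 (1.42 to 4.85) for *C1qtnf4*. Set against the adrenaline cells without *Pnmt* it was 1.86 (1.45 to 2.41), 1.60 (1.15 to 2.29) and 1.38 (0.808 to 2.54), and the last interval includes equal levels.

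Genes other than the 5 moved further across the bins. The calcium-binding protein gene *Scgn* went from 4 UMIs (25.5 CPM) in the bin of 1 to 3 to 106 UMIs (196 CPM) in the highest. *Cox8b*, which encodes a subunit of cytochrome oxidase, went from 522 to 12.9 CPM, and *Penk*, the proenkephalin gene, from 13 UMIs to 0 UMIs. Both are among the 10 leading genes of the noradrenaline-like cells. The bin of 1 to 3 held 134 adrenaline and 23 noradrenaline-like cells, and the highest bin 541 adrenaline and 0 noradrenaline-like cells. The part of this mix of cells in these changes was not tested.

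Cell by cell the genes went only weakly together. Over 1659 adrenaline cells at 1000 UMIs, Pearson's r for the 10 pairs of the 5 genes lay between -0.059 and 0.067, in sparse counts from 1 library. With *Pnmt* r was 0.196 for *Cfap61*, 0.145 for *Ramp1*, 0.102 for *C1qtnf4*, 0.014 for *Fxyd2* and -0.0018 for *Olfm3*. Cells with a *Cfap61* UMI had 1.20 times (1.17 to 1.24) the *Pnmt* level of those without one, and cells with a *Ramp1* UMI also 1.20 times (1.17 to 1.24). For *Fxyd2* the same ratio was 1.01 (0.971 to 1.06) and for *Olfm3* 0.992 (0.936 to 1.05). The 98 cells with an *Olfm3* UMI held 0.725 times (0.580 to 0.897) the *Cfap61* level of the other cells.

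Of the adrenaline cells at that depth 14.0% had none of the 5 genes, 39.8% had 1, 34.7% had 2, 10.5% had 3 and 1.02% had 4, and no cell had all 5. In noradrenaline-like cells 71.0% had none, and in endothelial-like cells 98.7%.

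The receptor genes whose products pair with RAMP1 were nearly absent from the adrenaline cells. *Calcrl*, the receptor that RAMP1 needs for calcitonin gene-related peptide, had 3 UMIs in 1670 adrenaline cells (0.408 CPM) and 15 UMIs in noradrenaline-like cells (11.4 CPM), against 275 CPM in endothelial-like cells. Of 1336 adrenaline cells with a *Ramp1* UMI, 2 also had a *Calcrl* UMI. *Calcr*, the calcitonin receptor that RAMP1 turns into an amylin receptor, had 1 UMI in all 10139 cells. The related genes *Ramp2* and *Ramp3* showed the opposite distribution to *Ramp1*, at 1.49 and 1.36 CPM in adrenaline cells against 1211 and 266 CPM in endothelial-like cells. *Adm*, which encodes the ligand adrenomedullin, stood at 111 CPM in adrenaline and 131 CPM in noradrenaline-like cells. *Crcp*, which encodes the receptor component protein of the calcitonin gene-related peptide receptor, stood at 29.5 CPM (217 UMIs) in adrenaline and 22.1 CPM in noradrenaline-like cells. Of the 4 genes of the receptor list at 10 CPM or more, the chosen *Ramp1* was 2-fold higher in adrenaline cells and *Calcrl* 2-fold lower. Of all genes 2.45% were higher and 3.28% lower.

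Of 7 genes of FXYD proteins and sodium pump subunits compared, *Fxyd2*, chosen by its fold in these same cells, was 2-fold higher in adrenaline cells. Among the other 6, 0 were 2-fold higher and 0 lower than in noradrenaline-like cells, beside 2.45% and 3.28% of all genes. *Fxyd6* stood at 392 and 227 CPM, and the pump's beta subunit gene *Atp1b1* at 778 and 432 CPM. *Fxyd1* was low in both (5.2 and 16.8 CPM) and stood at 2086 CPM in the *Scn7a* cluster, in which *Fxyd2* was not found. With a pseudocount of 1 CPM *Fxyd1* was also called 2-fold lower in adrenaline cells.

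Of 3 C1q family genes compared, *C1qtnf4* was higher and *C1ql1* lower in adrenaline cells, the latter at 361 against 813 CPM. The third, *C1qtnf12*, stood at 46.7 and 42.6 CPM. Of 6 genes on the olfactomedin list, which also holds the latrophilin receptor genes, *Olfm3* was 2-fold higher and *Olfm2* 2-fold lower, at 1.77 against 21.3 CPM. *Olfm1* stood at 98.6 and 164 CPM. *C1qtnf4* and *Olfm3* were chosen by their fold in these same cells, and of all genes 2.45% were 2-fold higher and 3.28% lower.

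**Figure D5:**
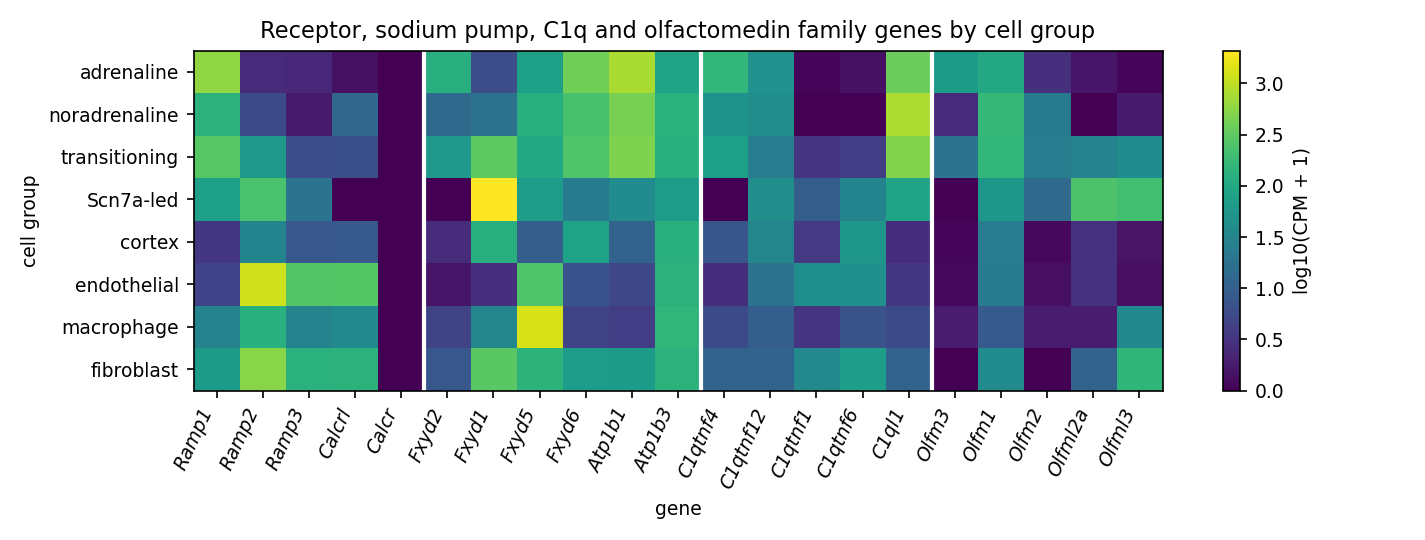
Levels of *Ramp1*, *Fxyd2*, *C1qtnf4* and *Olfm3*, each followed by relatives or partners, in 8 cell groups, as colour on a log10(CPM + 1) scale, with white lines between families. *Ramp1* is high in adrenaline cells while *Calcrl*, *Ramp2* and *Ramp3* are high in endothelial-like cells, and *Fxyd1* is high in the cluster led by *Scn7a*.

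Few other genes of motile cilia accompanied *Cfap61*. Of the 48 other listed genes in the matrix, 16 had no UMI in the adrenaline cells and 41 were under 10 CPM, with a median of 0.611 CPM. The highest was *Cfap36* at 198 CPM. *Foxj1*, a master regulator of motile cilia, had 3 UMIs and *Mcidas*, which acts upstream of it, 0 UMIs. Of 9 listed genes compared, the chosen *Cfap61* and the radial spoke gene *Rsph1* were 2-fold higher in adrenaline than in noradrenaline-like cells. Of all genes 2.45% were. *Rsph1* had 128 UMIs (17.4 CPM) in adrenaline cells and 0 UMIs in noradrenaline-like cells, which against the limit of 3 counts there is at least 7.61-fold higher.

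The median ratio of adrenaline to noradrenaline-like cells, on the (CPM + 10) scale, was 1.05 for the receptor list, 0.681 for the sodium pump list, 1.08 for the C1q list, 0.758 for the olfactomedin list and 1.02 for the cilium list, beside 0.986 over all genes compared. The 5 genes themselves are counted in these lists, and this contrast is the one that chose them. Without the 5, 24 listed genes were compared. Among them 1, *Rsph1*, was 2-fold higher and 3, *C1ql1*, *Calcrl* and *Olfm2*, were 2-fold lower in adrenaline cells. Over all 8738 genes compared the shares were 2.45% higher and 3.28% lower. Between the *Pnmt* bins 27 listed genes other than the 5 were compared. Of these 5 were 2-fold lower in the highest bin (18.5%, beside 6.55% of all genes), namely *Adgrl3*, *Calca*, *Ccdc40*, *Olfm2* and *Wdr66*, each with 2 to 6 UMIs in the lower bin, and 0 were higher (beside 5.94% of all genes).

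Genes with the most similar pattern were sought over 11 cell groups of this library among 4521 genes at 30 CPM or more in adrenaline cells. On log2(CPM + 10), *Cfap61* was most like *Slc6a4*, the serotonin transporter gene (Pearson's r = 0.993), then *Faim2*. *Ramp1* was most like *Alcam* (0.981) and then *Cfap61* (0.980). *Fxyd2* was most like *Hand1*, which encodes a transcription factor of the sympathoadrenal lineage (0.990), then *Kcnip1*. *Olfm3* was most like *Rph3a*, the rabphilin gene (0.987), and *C1qtnf4* most like *Prkra* (0.990). The groups share 1 library and differ in depth. The genes named are those with the highest r among the 4521, so high values were built into the search. *Pnmt*, not picked this way, had r from 0.904 with *C1qtnf4* to 0.968 with *Fxyd2*.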

How the data were processed

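Cells of the adrenal medulla were profiled by droplet single-cell RNA sequencing. The authors deposited a matrix of UMI counts per gene and barcode, with its gene and barcode lists. The submitters' processing notes name Cell Ranger 4.0.0 and mm10, and the counts were not normalized. Barcodes with 500 to 5000 genes and at most 20% mitochondrial UMIs were kept. Clustering used Seurat 5.3.0 with 2000 variable features, 10 principal components and resolution 0.4, and medullary clusters were taken out and clustered again. A cluster was named from 3 or more markers found in 50% of its cells (25% for sustentacular and cycling markers). Transitioning cells held both chromaffin and sustentacular markers. A cluster of 179 cells held the 6 sustentacular markers alone but is left unnamed, since it was shallow (median 1149 UMIs against 3567 over all cells) and had none of them among its 10 leading genes by fold. Clusters with markers of several types (730 cells) were left out of the classes. Scrublet in scanpy 1.11.5 (expected rate 8%) called 669 doublets, which were not removed. Thinning drew 1000 UMIs per cell without replacement and left out shallower cells.

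Levels carry exact Poisson, shares exact binomial (Clopper-Pearson) and ratios exact conditional binomial 95% intervals (scipy 1.17.1), and a count of 0 is given a limit of 3 counts. With 1 library no p-value is given. A gene was called different at a 2-fold ratio of (CPM + 10) if it stood at 10 CPM or more in either group. Gene positions are those of GENCODE M21 on GRCm38, promoters those of RefSeq. The genes and gene lists were chosen with earlier results of these data known. Named are the 5 genes, genes of the lists (a listed gene is not reported here), markers, the 10 leading genes per main cluster, the 10 largest rises and falls over the bins, and the 5 genes most alike in pattern. Alternatives varied the filter, clustering, naming, thinning, detection minimum, pseudocount and fold, and the sex markers of the cells.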

Additional observations from a re-analysis of the deposited data

Results flagged for a closer look

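All 5 genes were also present in the 1075 barcodes that failed the cell filter and entered no comparison, at levels above what a count of 0 would allow. *Cfap61* stood there at 260 CPM, *Ramp1* at 149 CPM, *C1qtnf4* at 40.2 CPM, *Fxyd2* at 25.7 CPM and *Olfm3* at 20.7 CPM. The 950 barcodes with too few genes held 59.8 CPM of *Cfap61*, 38.1 CPM of *Ramp1*, 15.3 CPM of *C1qtnf4*, 10.2 CPM of *Fxyd2* and no *Olfm3* UMI. The 78 barcodes with too many genes, at a median of 22790 UMIs, held 359 CPM of *Cfap61*, 201 CPM of *Ramp1*, 53.1 CPM of *C1qtnf4*, 33.6 CPM of *Fxyd2* and 29.2 CPM of *Olfm3*.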

How the results depend on the processing

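Of 53 alternative values of the adrenaline to noradrenaline ratio, 43 lay within the interval of the reported value, as did 73 of 80 ratios between *Pnmt* bins, and none changed direction for a ratio whose interval excluded 1. With each cell named from its own markers (1563 adrenaline, 643 noradrenaline cells), 1449 and 358 of these were in the reported classes. The ratios were then 3.52 for *Cfap61*, 2.39 for *C1qtnf4*, 3.33 for *Ramp1*, 3.57 for *Fxyd2* and 10.4 for *Olfm3*. In cells with *Xist* and no Y-linked UMI (281 and 40 cells) they were 8.41, 6.47, 3.53 and 26.0 (4.62 to 1034, from 1 noradrenaline UMI) for the first 4, and *Olfm3* had no value. In cells with a Y-linked and no *Xist* UMI the ratio of *Ramp1* was 5.75, and that of *Cfap61* between the bins with 16 or more and 1 to 3 *Pnmt* UMIs was 2.43. *C1qtnf4* fell to 1.21 between these bins at 2000 UMIs and to 1.51 without thinning, and *Fxyd2* was 3.15 in *Xist* cells, from 2 UMIs in the lower bin. Against the bin of 4 to 7, *Ramp1* was 1.09 (0.780 to 1.56) in the shallowest cells and 1.72 without thinning, and *Cfap61* 1.31 (0.940 to 1.82) in *Xist* cells. The cause was not tested. At a fold of 4, listed genes other than the 5 gave 0 higher and 0 lower calls between adrenaline and noradrenaline cells (1 and 3 as reported), and the bins gave 0 of the 5 genes (2 as reported) and 0 lower listed genes (5 as reported). With a pseudocount of 1 CPM the lower listed genes were 5, and 1 listed gene was higher between bins (0 as reported). Over all genes, 446 were higher and 497 lower in adrenaline cells with a pseudocount of 1 (214 and 287 as reported), and 40 and 52 at a fold of 4. Between bins they were 965 and 1388 (525 and 579 as reported), and 17 and 13. Requiring 2 UMIs left *Cfap61* in 77.9% of adrenaline and 12.9% of noradrenaline cells. An exact neighbour search was added after seeing the data. No paired analysis was possible because there was 1 library. Pooled animals cannot be told apart.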

Other observations

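The 730 cells of clusters with markers of several cell types, of which 68.5% were called doublets, also carried the 5 genes. *Cfap61* stood there at 249 CPM and was found in 39.3% of cells, *Ramp1* at 146 CPM in 35.6%, *C1qtnf4* at 38.9 CPM in 16.2%, *Fxyd2* at 30.6 CPM in 13.0% and *Olfm3* at 14.0 CPM in 7.26%. *Pnmt* stood at 2610 CPM in the same cells.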
